A study of Mus musculus with 14 samples.

Results

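The odorant receptor (OR) pseudogenes of the mouse were described in the olfactory epithelium of pups at postnatal day 5. They were chosen by name: 290 gene symbols of the form Olfr, a number and the ending -ps, listed in both expression tables. They stand among 51211 gene symbols, and 1116 symbols made of Olfr and a number only were used as the intact OR genes beside them. The Kir2.1 experiment compared 3 mice carrying OMP-IRES-tTA together with tetO-Kir2.1-IRES-tauLacZ, called Kir2.1 mice, with 3 control mice that were heterozygous for OMP-IRES-tTA and carried no channel transgene. The Omp promoter drives the transgene in mature olfactory sensory neurons (OSNs), where the Kir2.1 potassium channel silences spontaneous firing, and the control mice share the driver. The labels name the Kir2.1 group Kir2.1-off, the name used for mice in which the transgene is later turned off, but the tissue was taken at day 5. The phenylethylamine (PEA) experiment compared 4 wild type mice kept in PEA odor from day 0 to day 5 with 4 unexposed wild type mice. The strain is given as C57BL/6 for all mice in the labels and as CD1 for odor exposure in the study's methods.

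Each mature OSN transcribes an OR gene from a single allele, and the receptor protein feeds back to keep that choice. Choice is drawn from a family of many clustered genes, in which duplication has left large numbers of copies with broken reading frames beside intact ones. A neuron that transcribes such a broken copy makes no working receptor and is known to switch to another gene, so that OR pseudogenes are usually seen at low levels. Transcripts with an early stop codon can also be removed by nonsense-mediated decay.

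Values were normalized counts, which are Salmon read estimates divided by DESeq2 normalization factors. The Kir2.1 libraries were selected for poly-A tails and the PEA libraries were depleted of ribosomal RNA, and each table was normalized alone, so tests were made only within an experiment. The normalized count of Kcnj2, the gene of Kir2.1, is given first as a check of the labels: it was 986 to 1274 in the Kir control mice and 17926 to 24193 in those with the transgene. Of the 7 mature OSN markers, silencing went with a lower level of all 7 at an unadjusted p under 0.05, and their summed level was 101228 to 111463 in the control mice and 73543 to 85249 in the Kir2.1 mice. In the same comparison all 4 red blood cell markers were higher at that threshold, with sums of 10820.3 to 19581 and 19957 to 33172. Dnah5, a marker of respiratory ciliated cells, was also higher. Of all genes, 6.2% were lower and 4.93% higher at that threshold. Vomeronasal receptor genes, which belong to another organ of the nose, had a mean log2 level of 6.06 in Kir control mouse 1 against 2.42 to 2.51 in the other 5 mice of that experiment. In the PEA experiment this level was 5.76, 4.69 and 3.92 in control mice 1 to 3, 5.32 in exposed mouse 1, and 1.43 to 1.71 in the other 4 mice. Of the cell type markers there, Omp, Gng8, Cyp1a2, Krt5, Krt14 and Foxj1 were higher at an unadjusted p under 0.05 by limma. Gnal was lower, and none passed after adjustment. Of all genes in that experiment, 8.93% were higher and 6.04% lower at that threshold. The part of these differences in the results that follow was not tested, except where a value without a mouse or with the vomeronasal level as a covariate is given.

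The name of a member did not settle what the annotation calls it. In GENCODE vM21 on GRCm38, 197 members were unprocessed pseudogenes, 45 polymorphic pseudogenes, which are broken in the reference strain but intact in others, 14 transcribed unprocessed pseudogenes and 34 protein-coding genes. The median longest reading frame from a start codon was 317 codons in the protein-coding members, 233 in the polymorphic, 192.5 in the transcribed unprocessed and 69.0 in the unprocessed class, against 314 in the intact genes. The 34 protein-coding members thus carry a pseudogene name over a frame as long as that of an intact receptor. The intact genes were also chosen by name only: of the 1106 that were annotated, 1092 were protein-coding and 1092 had a frame of at least 290 codons. The frame could be followed from the base under the start codon of the closest intact OR gene in 124 members. It met its first stop before codon 100 in 65 of them, between codons 100 and 289 in 32, and at codon 290 or later in 27, and the start codon itself was kept as ATG in 85.

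The following stretches, read from GENCODE vM21 transcripts on GRCm38, show how such frames end in 4 members, each beside its closest intact gene, and they were chosen after the values were seen. The capitals mark the member's first in-frame stop codon and the bases of the intact gene aligned to it. Olfr1077-ps1 (chromosome 2, 86525028 to 86528427, minus strand, polymorphic pseudogene) was 90.2% identical to Olfr1076, with its stop at codon 151 and no net gap before it.
Olfr1077-ps1: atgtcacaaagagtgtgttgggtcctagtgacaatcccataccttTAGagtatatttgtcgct
Olfr1076: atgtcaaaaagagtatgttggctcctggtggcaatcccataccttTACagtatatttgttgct
Olfr300-ps1 (chromosome 7, 86435913 to 86445258, plus strand, polymorphic pseudogene) was 91.9% identical to Olfr310 and had its stop at codon 38, after 1 missing base. The aligned letters of the intact gene are the same but are read in another frame.
Olfr300-ps1: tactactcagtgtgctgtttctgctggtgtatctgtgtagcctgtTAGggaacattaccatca
Olfr310: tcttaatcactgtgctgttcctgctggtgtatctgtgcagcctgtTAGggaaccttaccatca
Olfr188-ps1 (chromosome 16, 59046861 to 59054202, minus strand, transcribed unprocessed pseudogene) was 93.1% identical to Olfr190 and had its stop at codon 171, after a net loss of 20 bases.
Olfr188-ps1: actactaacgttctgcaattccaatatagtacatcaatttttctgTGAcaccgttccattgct
Olfr190: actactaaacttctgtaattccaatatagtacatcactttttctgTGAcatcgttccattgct
Olfr1532-ps1 (chromosome 7, 106908001 to 106916265, plus strand) is shown for contrast. It is annotated as protein-coding, was 98.9% identical to Olfr707, and had its first stop at codon 308, the end of the intact frame.
Olfr1532-ps1: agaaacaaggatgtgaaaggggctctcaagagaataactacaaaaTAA
Olfr707: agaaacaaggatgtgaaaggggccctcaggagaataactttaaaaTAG

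Detection of the pseudogenes differed between annotation classes. The transcribed class is by its name set apart by transcripts already seen, so its contrast with the unprocessed class is in part built in. In the Kir2.1 experiment 172 of the 290 members were above 0 in at least 1 mouse and 60 had a mean of at least 10, the minimum for a test. In the PEA experiment these were 194 and 50. The same 46 members passed in both, 226 passed in neither, and 70 were listed at 0 in every mouse of both experiments. Of the 34 protein-coding members, 29 passed in each experiment. The polymorphic class gave 25 of 45 in the Kir2.1 and 17 of 45 in the PEA experiment, and the transcribed unprocessed class 6 and 4 of 14. None of the 197 unprocessed pseudogenes passed in either experiment, although 81 and 102 of them were above 0 in at least 1 mouse. Of the intact genes, 1010 and 943 of 1116 passed.

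**Figure D1:**
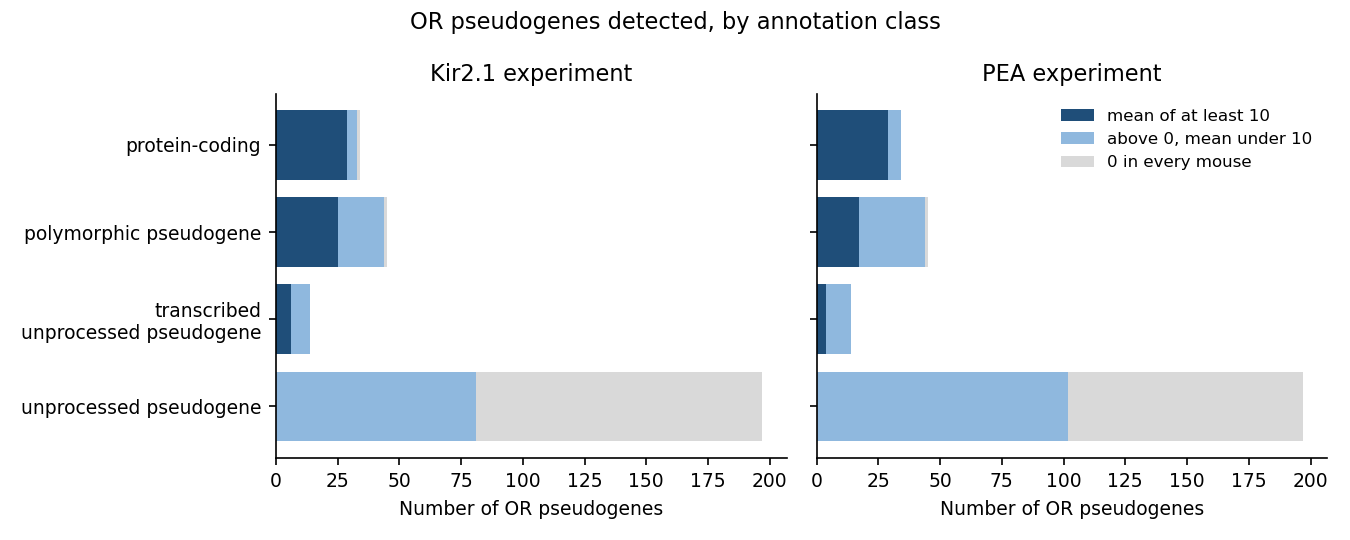
Number of OR pseudogenes (horizontal axis) in each annotation class (vertical axis) for the Kir2.1 and PEA experiments, split into those whose mean reached 10 normalized counts, those above 0 with a lower mean, and those at 0 in every mouse. The dark bars hold 29 of 34 protein-coding members in both experiments and none of the 197 unprocessed pseudogenes.

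The length of the reading frame gave a like order. Members with a frame of at least 290 codons passed the minimum in 33 of 41 cases in each experiment. Those of 200 to 289 codons passed in 19 and 10 of 47, those of 100 to 199 codons in 8 and 6 of 69, and those under 100 codons in 0 and 1 of 133. These classes also differ in annotated length, and a normalized count grows with length. The median exon length was 3311 bases for frames of at least 290 codons, 960.0 and 932 for the middle classes and 544 for those under 100 codons. By annotation it was 3327.5 bases in the protein-coding, 963 in the polymorphic, 1484.5 in the transcribed unprocessed and 752 in the unprocessed class, against 2935.5 in the intact genes. The part of length in the pass rates was not tested.

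Per kilobase of annotated exon, the median control level over all 290 members was 0.366 normalized counts in the Kir2.1 experiment, against 16.4 over the annotated intact genes, and 0.327 against 9.70 in the PEA experiment. Among those that passed the minimum the gap was smaller. The median control level of the tested members was 12.3 normalized counts per kb in the Kir2.1 experiment, against 17.8 for the tested intact genes, and 10.01 against 11.2 in the PEA experiment. Within the tested members the protein-coding class had a median of 11.2 per kb and the other classes together 12.5 in the Kir2.1 experiment, and 9.03 and 11.7 in the PEA experiment. Because the minimum was applied to counts that had not been divided by length, short genes had to be denser to pass it, and 226 members do not enter the medians of tested members. The members nearest the minimum were Olfr911-ps1, with a mean of 10.01, just inside it and Olfr565-ps1, with 9.88, just outside in the Kir2.1 experiment, and Olfr587-ps1 with 10.1 and Olfr964-ps1 with 9.87 in the PEA experiment.

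Reads from near-identical copies limit what can be assigned to a member. The median share of a member's 31-base words found in no other annotated gene was 93.1%, against 91.3% for intact genes. In 202 members the share was at least 80%, and in 21 it was under 50%. Another gene overlapped 13 members on the same strand and 12 on the opposite strand.

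A single locus held much of the pseudogene signal. Olfr1372-ps1 (chromosome 11, 52154722 to 52168159, minus strand) is a transcribed unprocessed pseudogene with 9812 bases of exon, is 97.3% identical to Olfr1383 over the alignment, and overlaps the gene Gm26551 on the same strand. Its normalized counts were 761, 497 and 677 in the Kir control mice and 709, 910.0 and 667 in the Kir2.1 mice. They were 842, 924, 991 and 787 in the PEA control mice and 876, 697, 680.4 and 695 in the exposed mice. It had the highest mean of all members in both control groups, and made 12.2 to 23.4% of the summed member signal of a mouse in the Kir2.1 and 22.8 to 37.5% in the PEA experiment.

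The other members with high levels were mostly of the protein-coding class. In the Kir control mice Olfr718-ps1 had 293, 504 and 449 normalized counts, Olfr1192-ps1 332, 262 and 212, Olfr1025-ps1 136, 163 and 169, and Olfr1326-ps1 163, 118 and 123. All 4 are annotated as protein-coding, and Olfr1326-ps1 lies on the X chromosome. Olfr75-ps1, a transcribed unprocessed pseudogene with a longest frame of 194 codons, had 111, 140.1 and 190.4. In the PEA control mice the order was different: Olfr1038-ps, a polymorphic pseudogene on chromosome 2, followed Olfr1372-ps1 with 117, 133, 119 and 194, and then came Olfr839-ps1 with 88.3, 147, 94.6 and 179 and Olfr1555-ps1 with 72.1, 95.7, 77.8 and 115. The ranges of these 3 overlapped.

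Per kb, the tested members spanned more than an order of magnitude. Olfr1372-ps1 stood at 65.8 normalized counts per kb in the Kir control and 90.3 in the PEA control mice. Olfr465-ps1 stood at 44.6 and 24.6, and Olfr1025-ps1 at 43.7 and 19.3. At the other end were Olfr764-ps1 with 4.38 and 3.47, Olfr709-ps1 with 6.41 and 3.62, and Olfr588-ps1 with 5.87 and 6.26. All but Olfr1372-ps1 among these 6 are annotated as protein-coding. Over the 146 members above 0 in both experiments, the control means ranked with a Spearman rho of 0.865, and over 1108 intact genes with 0.734. The points share annotation and length and include many members near 0.

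Some members were present in one experiment and close to absent in the other. Olfr300-ps1, the frameshifted polymorphic pseudogene shown above, had 37.5, 53.0 and 41.8 normalized counts in the Kir control and 37.4, 37.8 and 17.3 in the Kir2.1 mice, and was listed at 0 in 7 of the 8 PEA mice and at 0.911 in PEA control mouse 1. Olfr1185-ps1 had 25.7, 9.95 and 16.8 in the Kir control mice and no more than 2.52 in any PEA mouse. Olfr602-ps1, a transcribed unprocessed pseudogene, had 23.7, 30.2 and 13.9 in the Kir control mice and at most 4.41 in any PEA mouse. The 2 experiments differ in stated strain, library kit, read type and normalization, which cannot be told apart here. Olfr1077-ps1, the member with an in-frame stop shown above, was present in both, with 16.7, 9.92 and 8.81 in the Kir control mice and 20.5, 12.6, 18.6 and 29.0 in the PEA control mice, levels that cannot be compared across the separately normalized tables. These 3 genes without a place in the naming rule, Olfr300-ps1, Olfr602-ps1 and Olfr1077-ps1, were chosen after their values were seen.

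The first comparison asked whether silencing OSNs changed the pseudogenes. In the Kir2.1 mice 38 of the 60 tested members were lower than in the control mice, with a median log2 fold change of -0.29 on the scale of log2(normalized count + 1). The intact OR genes were lower in 858 of 1010 cases with a median of -0.45, while the median over all 19807 genes tested was 0.01. By limma, with p-values adjusted over all genes by the method of Benjamini and Hochberg, 0 of the 60 members passed the threshold of 0.05, against 0.353% of all genes. At an unadjusted p under 0.05, 8 members were lower and 1 was higher, and the shares of all genes lower and higher at that threshold were 6.2% and 4.93%. Of the 1010 intact OR genes, 261 were lower and 4 higher at that threshold, a larger share lower than among the members. The groups did not overlap for 9 members that were lower (9.04% of all genes) and 3 that were higher (7.26%). In bulk tissue, fewer cells of a type and less RNA per cell cannot be told apart.

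All 8 members that were lower at an unadjusted p under 0.05 are annotated as protein-coding. That class had 29 tested members, of which 23 were lower, with a median log2 fold change of -0.47. The other 31 tested members split into 15 lower and 16 higher with a median of 0.04. Among them the 25 polymorphic pseudogenes had a median of 0.19 with 11 lower, and the 6 transcribed unprocessed pseudogenes a median of -0.43 with 4 lower. The difference between the classes was not tested, because genes are not replicates. The protein-coding class was not split by level. The members outside it were set beside intact genes of like level, and the gap varied without a steady trend. At a mean of 10 to 20 normalized counts these 15 members had a median of 0.34 and the 151 intact genes -0.57. At 20 to 50 the medians were -0.28 (11 members) and -0.48 (379 genes). At 50 or more they were 0.04 (5 members) and -0.41 (480 genes). Leaving out a mouse moved the count of 8 most for Kir control mouse 3, with 3 members, Kir2.1 mouse 3, with 4, and Kir control mouse 1, with 5, and the median stayed between -0.26 and -0.17. With the vomeronasal level as a covariate the count was 5.

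**Figure D2:**
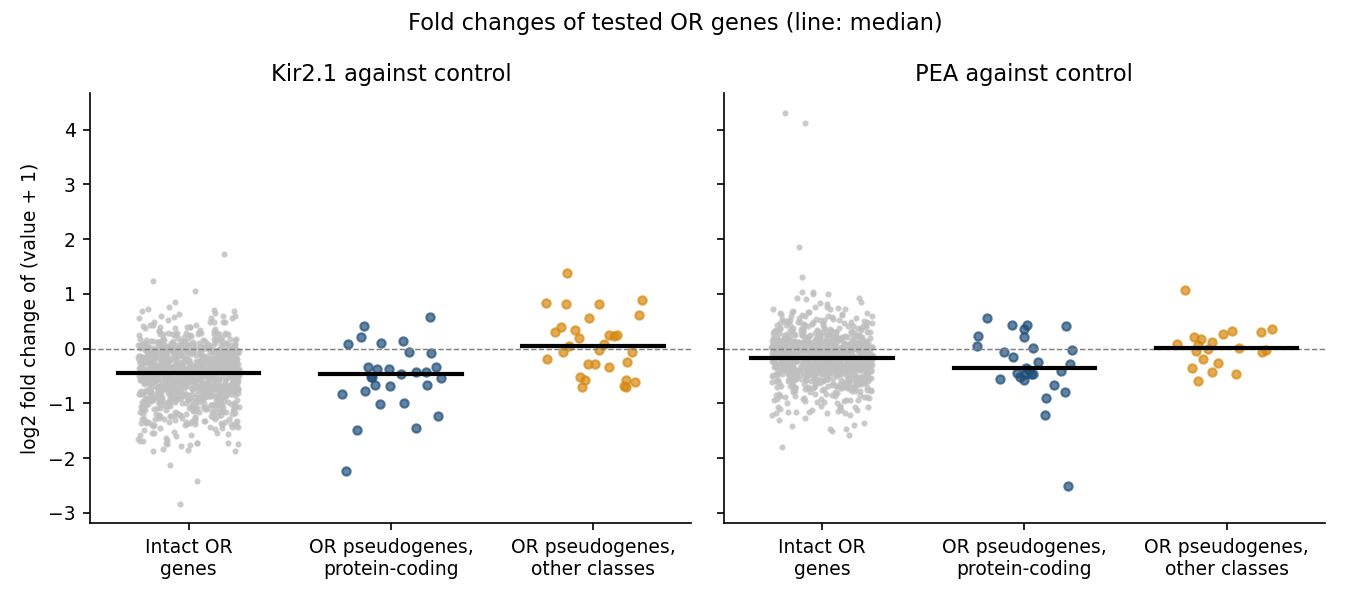
Log2 fold changes (vertical axis, of normalized count + 1) of tested intact OR genes, OR pseudogenes annotated as protein-coding and OR pseudogenes of other classes, for Kir2.1 against control (left) and PEA against control (right). Each point is a gene and black lines are medians, which in the Kir2.1 experiment stand at -0.45, -0.47 and 0.04.

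The smallest p among the members belonged to Olfr1532-ps1, whose intact frame end is printed above. It had 38.6, 37.0 and 28.6 normalized counts in the Kir control mice and 6.42, 15.3 and 15.6 in the Kir2.1 mice. The groups did not overlap, and the log2 fold change was -1.49 with an SE of 0.41 (limma, Benjamini-Hochberg adjusted p = 0.237, unadjusted 0.00743). Since 67.7% of its 31-base words are its own, part of its reads may be shared with Olfr707.

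Of the next members by p, a pair lies in the OR cluster of chromosome 9. Olfr911-ps1 (38521580 to 38527133, plus strand) had 11.2, 22.8 and 11.7 in the Kir control mice and 4.93, 6.47 and 3.07 in the Kir2.1 mice, and the log2 fold change was -1.45 with an SE of 0.49. Olfr896-ps1 (38291107 to 38294465, plus strand) had 24.5, 16.6 and 15.3 against 9.85, 8.16 and 4.60, a log2 fold change of -1.24 with an SE of 0.43. The groups of both did not overlap, and limma gave Benjamini-Hochberg adjusted p-values of 0.335 and 0.342.

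A pair of chromosome 2 members followed. Olfr1192-ps1 (88648509 to 88659772, plus strand) had 332, 262 and 212 in the control mice and 142, 204 and 79.0 in the Kir2.1 mice, and the log2 fold change was -0.997 with an SE of 0.34. Olfr1185-ps1 (88493320 to 88502049, plus strand) had 25.7, 9.95 and 16.8 against 4.61, 8.04 and 0, a log2 fold change of -2.23 with an SE of 0.87. Both are annotated as protein-coding with frames of 311 and 303 codons, and neither passed after adjustment, since limma gave Benjamini-Hochberg adjusted p-values of 0.342 and 0.407. The remaining 3 of the 8 were Olfr465-ps1, Olfr766-ps1 and Olfr718-ps1, with log2 fold changes of -0.66, -0.68 and -0.67. Of the 8, only Olfr718-ps1 had groups that overlapped.

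The member that was higher was Olfr1038-ps. It had 71.6, 116 and 76.8 normalized counts in the Kir control mice and 199.3, 174 and 101 in the Kir2.1 mice, so that the lowest Kir2.1 mouse lay below the highest control mouse. Its log2 fold change was 0.81 with an SE of 0.31 (limma, Benjamini-Hochberg adjusted p = 0.391). Its longest frame of 318 codons is as long as that of an intact receptor, although the annotation calls it a polymorphic pseudogene. Olfr1372-ps1 had a log2 fold change of 0.25 with an SE of 0.19.

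Below the minimum, Olfr1069-ps1, an unprocessed pseudogene on chromosome 2, was listed at 0 in all Kir control mice and at 0.923, 0.927 and 1.19 in the Kir2.1 mice. These values are near the level of a single read, and no fold is given. Without any minimum, 172 members could be fitted, of which 12 were lower at an unadjusted p under 0.05, against 4.17% of all genes, and the median was -0.10.

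The share of all OR signal that came from pseudogenes was higher in the Kir2.1 mice. It was 5.06, 4.63 and 4.90% in the control mice and 5.67, 5.91 and 5.50% in the Kir2.1 mice, and the groups did not overlap. Without Olfr1372-ps1 it was 4.16, 4.09 and 4.11% against 4.61, 4.59 and 4.40%. The summed member signal itself was 4023 to 4108 normalized counts in the control and 3192 to 3885 in the Kir2.1 mice, and the summed signal of the intact genes 77023 to 84167 and 54808 to 61802. Both sums were thus lower in every Kir2.1 mouse than in any control mouse, and the intact sum by the larger factor. No test over the members is given for this share, since they are not replicates.

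**Figure D3:**
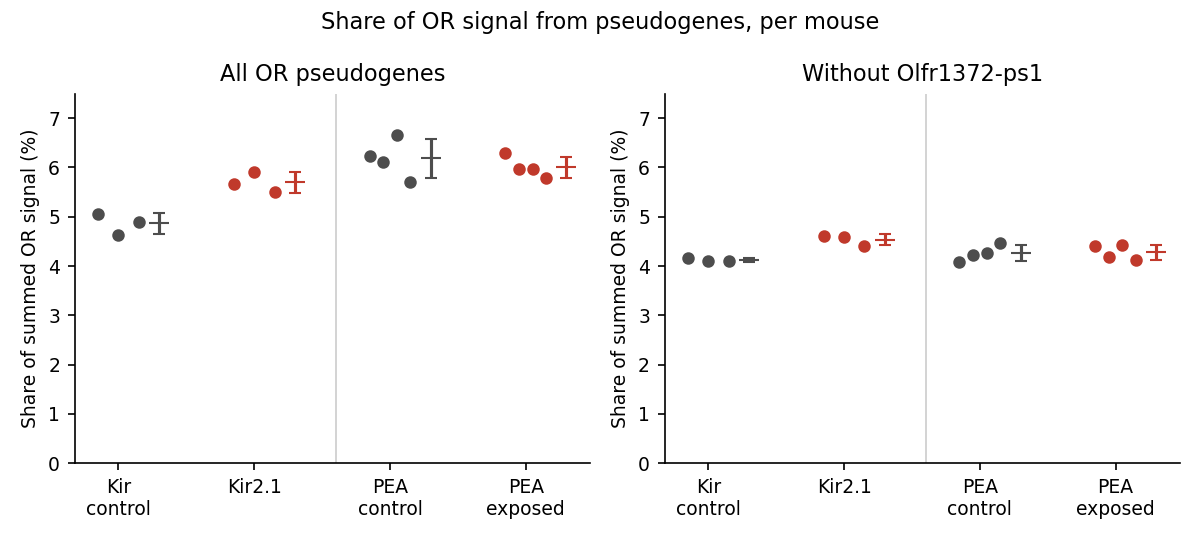
Share of the summed OR signal that came from OR pseudogenes (vertical axis, percent) in each mouse of the 4 groups, with all members (left) and without Olfr1372-ps1 (right); the bars show mean and SD. The Kir2.1 mice lie between 5.50 and 5.91%, above the 4.63 to 5.06% of their controls, and the PEA groups overlap.

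Genes that act in OR expression were looked at from a list of 15, which holds factors of OR choice such as Lhx2, Ebf1 and Ldb1, the feedback genes Adcy3, Atf5 and Ddit3, and the trafficking proteins Rtp1 and Rtp2. In the Kir2.1 mice 14 of the 15 were lower, with a median log2 fold change of -0.13. Of all genes tested 48.8% were lower, and the 7 mature OSN markers had a median of -0.38. Adcy3, Rtp1 and Rtp2 were lower at an unadjusted p under 0.05, beside 6.2% of all genes, and none passed after adjustment by limma. A list of 12 genes of nonsense-mediated decay, such as Upf1, Upf2 and Smg1, had 6 lower and 6 higher, a median of -0.004, and none at an unadjusted p under 0.05. In the PEA experiment the first list had Emx2 lower and Ldb1 and Ddit3 higher at that threshold. The second had Upf3b lower and Dhx34 higher, and none passed after adjustment. Of all genes in that experiment 6.04% were lower and 8.93% higher at the same threshold.

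The second comparison asked whether PEA odor during the first days of life changed the pseudogenes. In the exposed mice 30 of the 50 tested members were lower, with a median log2 fold change of -0.07, against -0.17 over 943 intact OR genes and -0.02 over all 17322 genes tested. By limma and the same adjustment 0 of the 50 passed 0.05, against 0.179% of all genes. At an unadjusted p under 0.05, 5 members were lower, beside 6.04% of all genes, and 1 was higher, beside 8.93%. Of the 943 intact OR genes, 95 were lower and 15 higher at that threshold, so the share of members lower was like that of intact genes. The groups did not overlap for 1 member that was lower (3.86% of all genes) and for none that was higher (5.46%). The count of 5 rested on single mice: it was 1 without exposed mouse 2, 2 without control mouse 2 or control mouse 4, 3 without exposed mouse 3 or exposed mouse 4, and 8 without control mouse 1. Control mouse 4 had the highest summed signal of the intact OR genes in this experiment, 57075 normalized counts against 35240 to 44041 in the other control mice and 35325 to 41448 in the exposed mice.

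The protein-coding members again had the lower median, -0.35 over 29 tested members with 20 lower, while the other 21 had 0.002 with 10 lower. Of the 5 members lower at an unadjusted p under 0.05, 4 were of the protein-coding class and the other was Olfr1372-ps1. The share of OR signal from pseudogenes was 6.23, 6.12, 6.66 and 5.71% in the control mice and 6.29, 5.96, 5.97 and 5.78% in the exposed mice, and the groups overlapped.

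Olfr911-ps1 had the largest log2 fold change of the tested members in this experiment. It had 33.8, 29.3, 17.5 and 49.99 normalized counts in the control mice and 20.9, 3.32, 3.39 and 1.304 in the exposed mice. In 3 of the 4 exposed mice it was thus lower than in any control mouse, while exposed mouse 1 lay within the range of the control mice. The log2 fold change was -2.50 with an SE of 0.64 (limma, Benjamini-Hochberg adjusted p = 0.137, unadjusted 0.00285). Without exposed mouse 1, which also had the high vomeronasal level, it was -3.16, with a Benjamini-Hochberg adjusted p of 0.037 from limma. Over all alternatives its adjusted p by limma ran from 0.037 to 0.300, the highest with the vomeronasal covariate, and the log2 fold change stayed below 0. Of its 31-base words 95.2% are found in no other gene.

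The surroundings of Olfr911-ps1 were described because its own neighbors hold many OR genes. Within 650 kb of its start lie 16 members and 53 OR genes that are intact by name. Among the latter, Olfr908, Olfr915 and Olfr936 are annotated as polymorphic pseudogenes. Of the members, 3 were tested, Olfr892-ps1, Olfr896-ps1 and Olfr911-ps1, with log2 fold changes of 0.18, -0.66 and -2.50, and 6 were listed at 0 in every mouse of this experiment. Of the 43 intact genes tested, 29 were lower, beside 639 of 943 (67.8%) over all tested intact genes. This count of signs does not set the neighborhood apart, but it leaves out the size of the changes. The lowest and highest log2 fold changes of all 943 tested intact genes both lie in the window, at Olfr143 (-1.81, SE 0.39) and Olfr888. Olfr878 and Olfr902 stood at -1.51 (SE 0.40) and -1.39 (SE 0.57). Whether large changes were more frequent here than elsewhere was not tested. The window also holds Olfr888 and Olfr890, the intact genes at log2 fold changes of 4.30 (SE 0.58) and 4.11 (SE 0.50), which were higher with Benjamini-Hochberg adjusted p-values of 0.0179 and 0.00995 from limma. No other tested intact OR gene passed in this experiment. Olfr889 lies between Olfr888 and Olfr890, but its mean was below the minimum, so it was not tested. Its normalized counts were 4.24, 14.9, 10.4 and 11.8 in the exposed mice, against 0 in each control mouse. The log2 fold change was 3.39 with an SE of 0.45. With DESeq2 on these same mice, the study reported the intact genes Olfr550, Olfr888, Olfr889 and Olfr890 as higher and Olfr143, Olfr239 and Olfr1325 as lower. Over the 8 mice, the tested OR genes whose log2 levels were most like those of Olfr911-ps1 were Olfr874 (Pearson r 0.931), Olfr902 (0.928) and Olfr149 (0.909), out of 992, and all 3 lie on chromosome 9. These values describe 8 libraries that share the group difference and the vomeronasal differences given above.

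**Figure D4:**
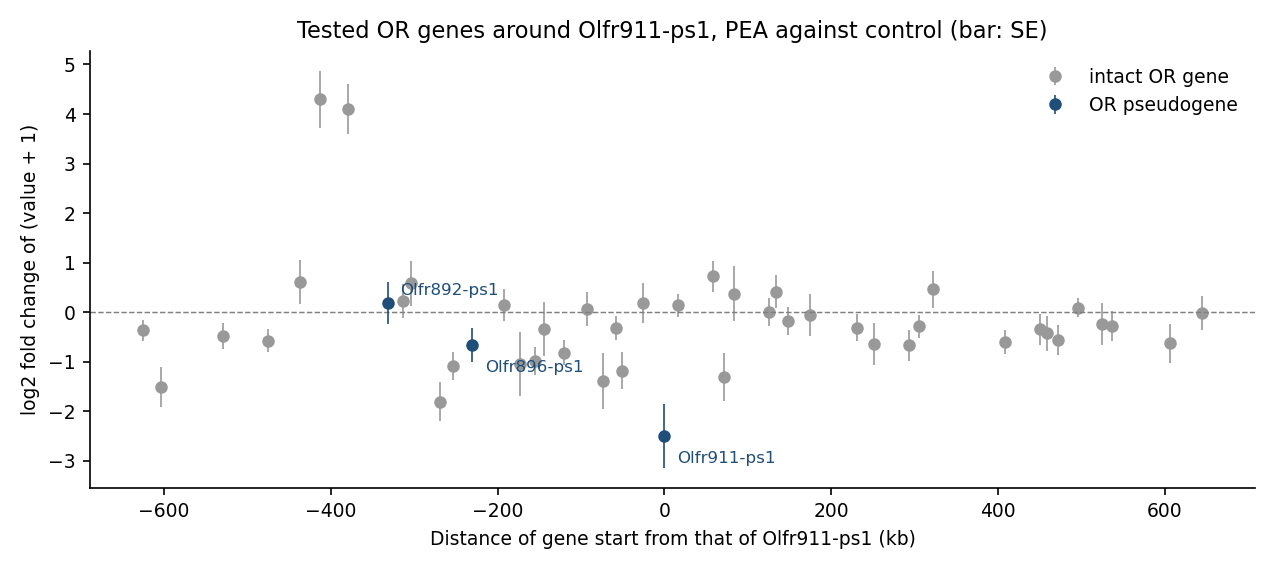
Log2 fold change of tested OR genes, PEA against control (vertical axis, of normalized count + 1, bars are SE), by distance of the gene start from that of Olfr911-ps1 in kb (horizontal axis), for intact genes (gray) and OR pseudogenes (blue). Olfr911-ps1 has the lowest value of the 46 genes, -2.50, and Olfr892-ps1 and Olfr896-ps1 stand at 0.18 and -0.66.

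Olfr188-ps1, whose premature stop is printed above, was the member that was higher. It had 18.3, 46.8, 39.6 and 35.5 normalized counts in the control mice and 114, 71.6, 82.1 and 37.9 in the exposed mice. Exposed mouse 4 lay within the control range, and the other 3 above it. The log2 fold change was 1.08 with an SE of 0.37 (limma, Benjamini-Hochberg adjusted p = 0.225, unadjusted 0.0149). In the Kir2.1 experiment its log2 fold change was -0.57 with an SE of 0.32, and the groups overlapped. The tested OR genes most like it over the 8 PEA mice were Olfr1468-ps1 (0.924), Olfr325 (0.910) and Olfr749 (0.900), on chromosomes 19, 11 and 14.

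The other members lower at an unadjusted p under 0.05 had smaller differences. Olfr766-ps1 (chromosome 10, 129061853 to 129068977, minus strand) had 32.2, 28.8, 34.5 and 38.0 in the control mice and 23.2, 20.4, 26.7 and 18.8 in the exposed mice, and was the only tested member whose groups did not overlap. Its log2 fold change was -0.57 with an SE of 0.22 (limma, Benjamini-Hochberg adjusted p = 0.277), and 54.3% of its 31-base words are its own. Olfr1555-ps1 and Olfr1191-ps1 had log2 fold changes of -0.56 (SE 0.23) and -0.90 (SE 0.39), and their shares of own words were 62.2% and 67.3%. Olfr1372-ps1 had -0.27 with an SE of 0.12, the smallest of these differences.

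Below the minimum stood a member with a complete separation. Olfr335-ps (chromosome 2, 36301541 to 36302479, plus strand, polymorphic pseudogene) had 6.03, 9.02, 4.29 and 4.75 normalized counts in the control mice, whereas all 4 exposed mice were listed at 0. Without a minimum it passed, with a Benjamini-Hochberg adjusted p of 0.0131 from limma over 33983 genes, of which 0.153% were called, and it was the only 1 of 194 members to do so. No other alternative was run without a minimum. The study, which tested these same mice with DESeq2 rather than limma, reported Olfr335-ps among the OR genes lower after PEA exposure. Its call is thus not independent of the values given here. In the Kir2.1 experiment it was listed at 0 in 5 mice and at 1.01 in Kir control mouse 1. Its sequence at the place of the start codon is shown beside that of its closest intact gene, Olfr350, to which it is 73.3% identical, with that codon in capitals. The alignment begins at base 7 of the intact frame, and the bases before it are set side by side without a gap.
Olfr335-ps: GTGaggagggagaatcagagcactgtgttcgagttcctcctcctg
Olfr350: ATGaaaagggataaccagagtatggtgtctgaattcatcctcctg
From that place the frame of Olfr335-ps ran without a stop to codon 313, the length of the intact frame.

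**Figure D5:**
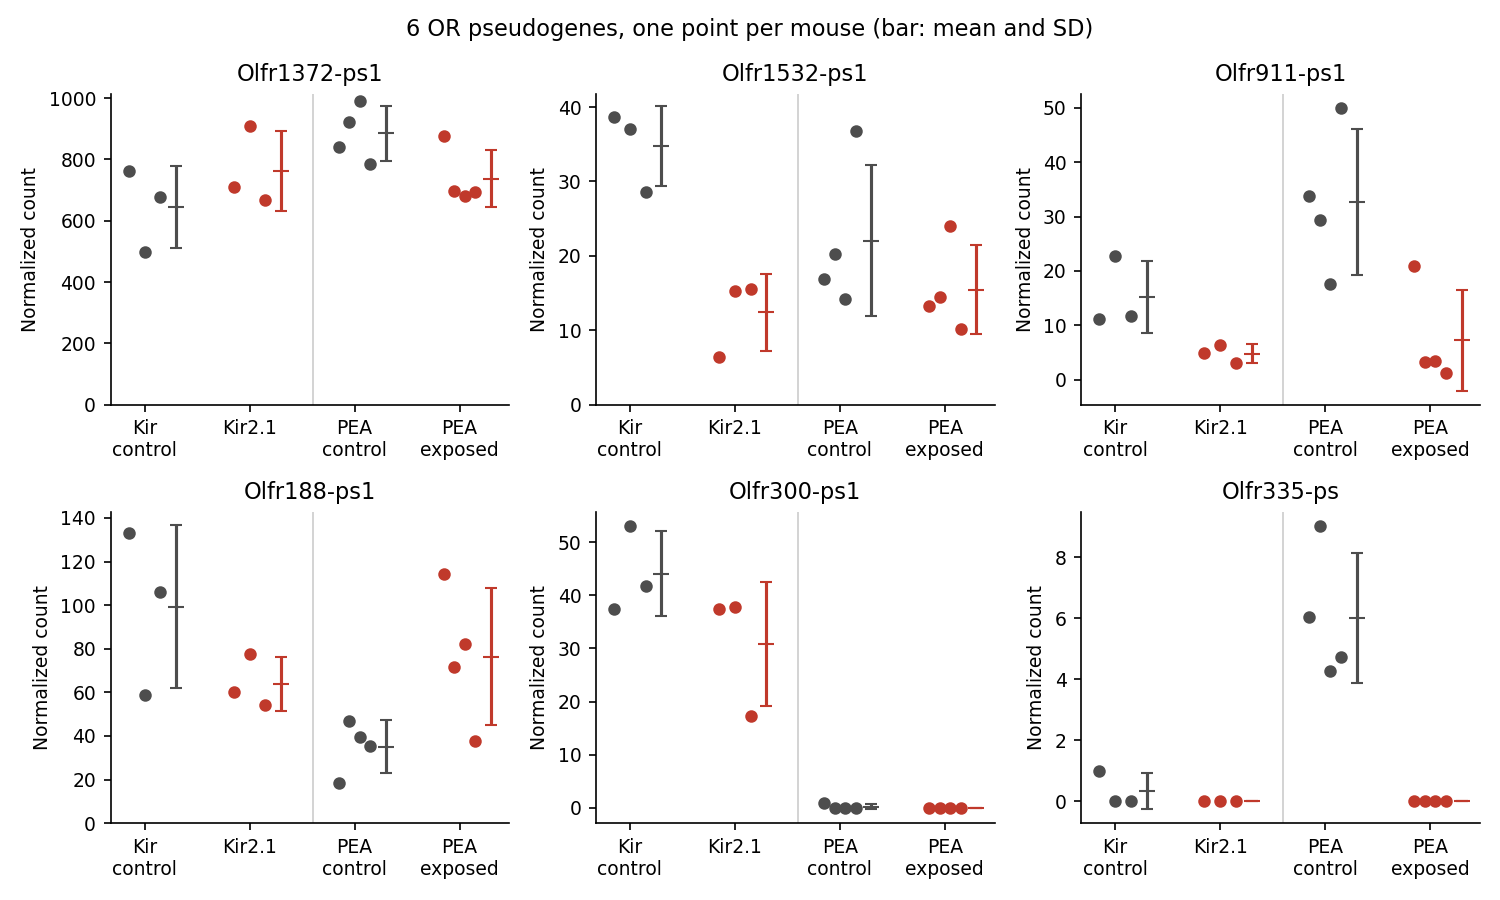
Normalized counts (vertical axis) of 6 OR pseudogenes in each mouse of the 4 groups, with mean and SD as bars; the experiments were normalized separately. Olfr1532-ps1 is lower in every Kir2.1 mouse than in any control, Olfr911-ps1 is below the controls in 3 of 4 PEA-exposed mice, Olfr335-ps is listed at 0 in all exposed mice, and Olfr300-ps1 is near 0 in all PEA mice.

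Set side by side, 21 of the 46 members tested in both experiments were lower in both. Of all genes tested, 48.8% were lower in the Kir2.1 and 53.5% in the PEA experiment. Among intact OR genes these shares were 85.0% and 67.8%. The share lower in both was not counted for other genes. Olfr911-ps1 had log2 fold changes of -1.45 in the Kir2.1 and -2.50 in the PEA experiment, and Olfr766-ps1 -0.68 and -0.57. Both were lower at an unadjusted p under 0.05 in each, beside 6.2% and 6.04% of all genes in the experiments taken alone. Olfr1532-ps1 had -1.49 and -0.46, Olfr896-ps1 -1.24 and -0.66, Olfr1192-ps1 -0.997 and 0.40, and Olfr1038-ps 0.81 and -0.03. Whether a change differed between the experiments was not tested, since the tables were normalized separately.

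The promoter windows at hand, 300 bases around each gene start from RefSeq on GRCm38.p6, covered 3 members, Olfr367-ps, Olfr1532-ps1 and Olfr911-ps1. None held CCCNNGGG, the core of the Ebf motif, or TAATTA, a homeodomain motif, when both strands were searched. These letters were in 13.7% and 5.29% of all 32851 windows, and in 3.07% and 18.6% of 944 windows of intact OR genes. No match says only that these letters are not in the window.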

How the data were processed

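Olfactory epithelia of individual pups at day 5 were sequenced in 14 libraries, 3 Kir2.1 and 3 control, 4 PEA-exposed and 4 control. The deposited values are a signal: gene-level read estimates that the authors obtained with Salmon 1.3.0 and divided by the normalization factors of DESeq2 1.30.0, separately for the Kir2.1 and the PEA tables. The values were not whole multiples of a step per mouse, so raw depth is unknown; the normalized totals were 33049100 to 34198500 per mouse in the Kir2.1 and 11476100 to 12467300 in the PEA experiment. The tables hold no columns of the authors' own comparisons. Each experiment was fitted alone with limma 3.58.1 in R 4.3.3 on log2(value + 1) of all genes whose mean was at least 10 (empirical Bayes with a mean-variance trend, two-sided, Benjamini-Hochberg adjustment, threshold 0.05). Fold changes on this scale understate changes of low genes. On simulated data for the Kir2.1 comparison (19807 genes, 200 changed) 51.5% of changes of 1 log2 unit and 80% of changes of 2 were recovered, and for the PEA comparison (17322 genes) 55.5% and 90%. The changed genes were drawn at random from all genes tested, so these rates do not apply to the members, whose own rates were not measured.

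GENCODE vM21 on GRCm38 gave positions, classes, exon lengths and sequences, and held all 290 members and 1106 of the 1116 intact symbols. Reading frames were aligned to the closest intact frame with BLAST 2.17.0. Other steps used Python 3.11.15 with scipy 1.17.1, pandas 2.3.3, matplotlib 3.10.9 and numpy 2.4.6. Members were named if they passed the threshold with or without the minimum or under an alternative, if they were among the 6 highest in the controls, the 5 with the lowest unadjusted p in each direction, or the 3 highest or lowest per kb, or if they were listed at 0 in 1 group only. The members and lists were chosen with earlier results of these data known. Alternatives were other pseudocounts and minimums, limma without a trend or robust, quantile normalization, median centring, a replicate block, a vomeronasal covariate, each mouse left out, members the annotation calls pseudogenes, and a threshold of 0.10. Leaving out both mice numbered 1 of the PEA experiment, and keeping members with at least 80% of 31-base words of their own, were added after the values were seen. P-values measure the spread between these mice only.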

Additional observations from a re-analysis of the deposited data

Results flagged for a closer look

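Among 60 groups of 4 PEA mice looked at, 5 held a mouse that stood apart from the other 3, and chance alone gives about 1 in 20 such groups. Olfr911-ps1 was at 20.9 normalized counts in PEA-exposed mouse 1 and between 1.304 and 3.39 in the other exposed mice. Olfr1372-ps1 was at 876 in the same mouse and between 680.4 and 697 in the others. Olfr1025-ps1 was at 75.1 in exposed mouse 2 and between 49.0 and 52.0 in the others. Olfr1069-ps1 was at 0.809 in exposed mouse 4, a value near that of a single read, and listed at 0 in the others. With the others at 0, any value above 0 is flagged. The median log2 level of the tested members outside the protein-coding class was 4.86 in PEA control mouse 4 and 3.93 to 4.05 in the other control mice.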

How the results depend on the processing

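None of the tested members had an adjusted p under 0.05 in the Kir2.1 experiment under any alternative, leave-one-out fits included (0 to 0), and at a threshold of 0.10 the counts were also 0 in both experiments. In the PEA experiment the count was 1 without a minimum (Olfr335-ps) and 0 to 1 with a mouse left out, the 1 being Olfr911-ps1 without exposed mouse 1. The count of members lower at an unadjusted p under 0.05 was 8 of 60 in the Kir2.1 experiment, beside 6.2% of all genes. It was 3 of 19 at a mean of at least 50, 5 with the vomeronasal covariate, 0 of 31 among members the annotation calls pseudogenes, and 3 to 10 with a mouse left out. The count in the PEA experiment was 5 of 50, beside 6.04% of all genes. It was 11 of 194 without a minimum, 2 of 10 at a mean of at least 50, and 9 without both mice numbered 1. Among members the annotation calls pseudogenes it was 1 of 21. It was 2 among members with at least 80% of their own 31-base words, and 1 to 8 with a mouse left out. The shares of all genes in these PEA alternatives are not given. The median log2 fold change in the Kir2.1 experiment, -0.29, was -0.10 without a minimum, 0.040 among members the annotation calls pseudogenes, and -0.26 to -0.17 with a mouse left out; in the PEA experiment it was -0.20 to 0.02. The cause of these differences was not tested, beyond the smaller or larger number of members and mice that each alternative holds. Same-numbered mice deviated together with correlations of -0.06, -0.01 and 0.16 in the Kir2.1 and 0.13, -0.02, -0.05 and 0.10 in the PEA experiment. These values cannot show whether same-numbered mice come from a shared litter. The study describes the Kir2.1 pups and their controls as littermates, and litters were not part of the fits. With the number as a replicate block the lower members were 8 in the Kir2.1 and 3 in the PEA experiment. Of 484 alternative values for named members, 463 kept their direction and side of the threshold, 1 passed it and 20 changed sign, none of them in a member with an unadjusted p under 0.05 in that comparison. With the vomeronasal covariate these were Olfr1326-ps1 (0.058), Olfr75-ps1 (-0.15) and Olfr764-ps1 (-0.10) in the Kir2.1 and Olfr588-ps1 (-0.29) in the PEA experiment, with median centring Olfr588-ps1 (-0.039), and without both mice numbered 1 Olfr764-ps1 (-0.27). With a mouse left out, the Kir2.1 values ran from -0.18 to 0.056 for Olfr1326-ps1, -0.036 to 0.15 for Olfr709-ps1, -0.14 to 0.24 for Olfr75-ps1 and -0.091 to 0.49 for Olfr764-ps1. The PEA values ran from -0.10 to 0.14 for Olfr1038-ps, -0.21 to 0.14 for Olfr465-ps1, -0.28 to 0.24 for Olfr588-ps1 and -0.14 to 0.30 for Olfr764-ps1. With a mouse left out, Olfr911-ps1 and Olfr1185-ps1 fell below the minimum in some fits of the Kir2.1 experiment and gave 3 and 4 values. The number of mice and the low levels of the members limit these comparisons, and raw depth is unknown.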
